A study of Mus musculus with 6 samples.

Results

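The 76 genes of the cytosolic ribosome were followed in 6 RNA sequencing libraries of a mouse colorectal tumor line, 3 of parental CT26.mMR1 cells and 3 of the mutant M8. The genes were selected by a rule on their names and mean level, set with earlier results of these data known. They are the symbols made of Rpl or Rps and a number, with an optional letter a or x, together with Rplp0, Rplp1, Rplp2 and Rpsa, and they were 76 of the 24346 symbols listed in the files. All 76 had a mean of at least 1 FPKM (fragments scaled to transcript length and to the size of the library), the minimum for testing. The lowest, Rps27, was at 8.96 FPKM, and no symbol of this form fell below the minimum. The set comprised 46 proteins of the large (60S) subunit and 30 of the small (40S) subunit. Parental CT26.mMR1 is CT26 transduced with a retrovirus carrying mouse MR1, a molecule that presents microbial metabolites to a class of T cells. M8 carries the same MR1 construct and is 1 clone, obtained after exposing CT26.mMR1 to the mutagen ENU, cloning by limiting dilution and screening the clones for MR1 on the surface and for activation of a T cell reporter line. A difference of M8 as a mutant therefore cannot be told apart from a difference of this clone, and p-values measure the spread between 3 cultures of each line. Both groups carry cl9 in their labelled titles, CT26_cl9 for the parental line and CT26_cl9_M8 for M8, and its meaning is not given in the sources used here. The labels name no batch. Among 10 epithelial markers, Epcam, Cdh1, Krt19 and Cdx2 were listed at 0 in every library, although the labelled tissue was colon. Only 3 epithelial markers passed the minimum. Krt18 was at 34.5 FPKM over the 6 libraries and was not called, whereas Krt20, at 17.4 FPKM in the parental line and 11.9 FPKM in M8, and Lgals4, at 1.68 and 0.68 FPKM, were lower (log2 fold change -0.50 and -0.66, limma adjusted p = 0.00438 and 0.00728). The summed level of the 10 epithelial markers was 41.8 to 57.7 FPKM in the parental line and 48.2 to 50.1 FPKM in M8. The mesenchymal marker Vim was at 1921 FPKM in the parental line and 2015 FPKM in M8, and 9 of 10 mesenchymal markers passed the minimum. Of these, Fn1 was lower (log2 fold change -0.35, limma adjusted p = 0.000917), S100a4 and Cdh2 were higher (0.52 and 0.13, limma adjusted p = 0.000302 and 0.055), and 6, Vim among them, were not called. Of 10 leukocyte markers only Cd68 passed it, and it was lower (4.31 FPKM in the parental line and 1.76 FPKM in M8, log2 fold change -0.96, limma adjusted p = 0.00203). The other 9 were below the minimum, 3 of them at 0 throughout, the sum of the 10 being 4.26 to 5.98 FPKM in the parental line and 1.53 to 3.05 FPKM in M8, and 5 endothelial markers summed to at most 0.266 FPKM. The part of these markers in the results was not tested. FPKM values are relative to the other messages of a library, so the amount of RNA per cell was not measured, and fewer cells of a kind and less RNA per cell cannot be told apart.

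The ribosome is built from ribosomal RNA and a fixed set of proteins, each needed in about equal number. The small subunit decodes the messenger RNA, and the large subunit forms the peptide bond and passes the growing chain through its exit tunnel. Most ribosomal protein messages carry a run of pyrimidines at their 5′ end, the TOP motif, through which mTOR signalling governs their translation. Their genes are among the most strongly transcribed in a growing cell and have left many processed pseudogenes in the genome.

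Ribosomal protein messages made up a large part of all FPKM, and their share was slightly smaller in M8. The share was 24.42%, 24.51% and 25.35% in the 3 parental libraries and 23.38%, 23.58% and 23.48% in the M8 libraries, so that the groups did not overlap (24.76 ± 0.515% against 23.48 ± 0.0959%, SD, n = 3). The summed FPKM itself did overlap, at 144963, 150668 and 158767 in the parental line and 147385, 148369 and 146190 in M8. The total over all symbols, by which the share is divided, ran from 593635 to 626241 in parental cells and from 622529 to 630264 in M8.

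**Figure D1:**
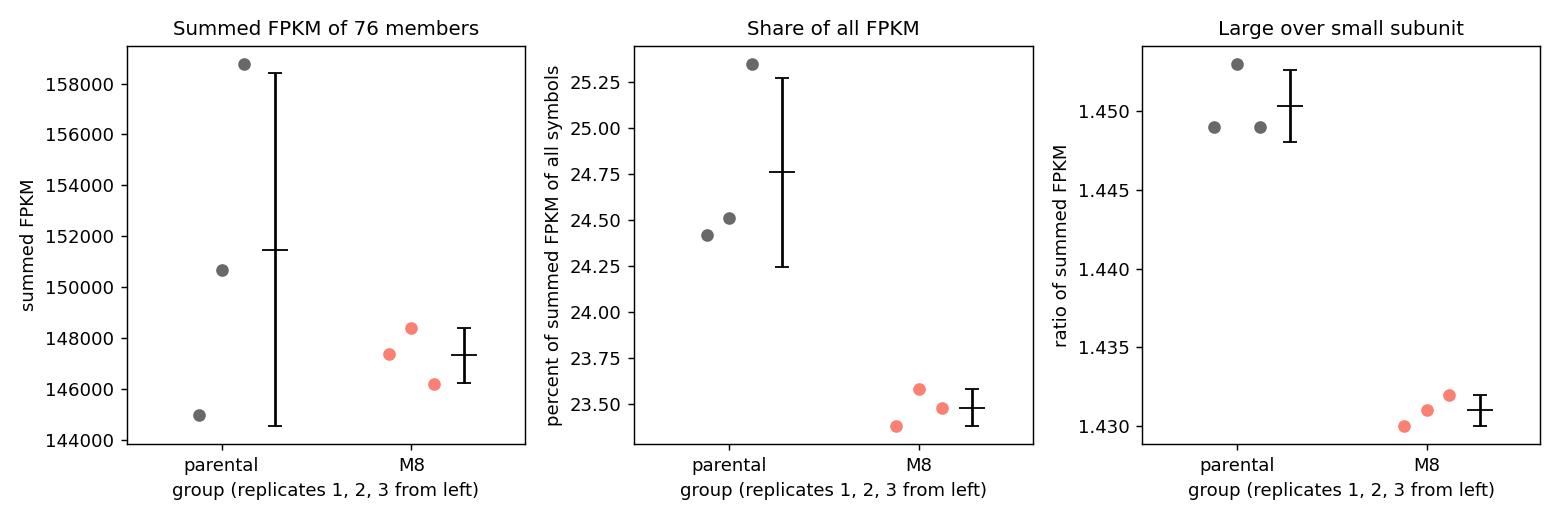
Left, summed FPKM of the 76 ribosomal protein genes. Middle, their percentage of the FPKM of all symbols. Right, the ratio of summed FPKM of the large to the small subunit. Points are single libraries (replicates 1 to 3 from left to right) and bars are the mean and SD of 3. The axes do not start at 0. The sums of the groups overlap, whereas the share (23.38% to 23.58% in M8) and the ratio (1.430 to 1.432 in M8) lie below every parental value.

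The large and small subunits followed each other closely. The ratio of their summed FPKM was 1.449, 1.453 and 1.449 in the parental line and 1.430, 1.431 and 1.432 in M8 (1.45 ± 0.00263 against 1.431 ± 0.00142, SD, n = 3). The groups did not overlap, but the difference of the means was only -0.0194. The large subunit took 14.66 ± 0.301% of all FPKM in the parental line and 13.82 ± 0.0587% in M8, and the small subunit 10.11 ± 0.214% and 9.66 ± 0.0378%.

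Of the 76 genes, 20 (26.3%) fell and 4 (5.26%) rose in M8 at a limma adjusted p under 0.1, and 52 were not called. Over all 10597 genes tested, 16.5% were lower and 21.2% were higher. The median log2 fold change, M8 minus parental on the log2(FPKM + 1) scale, was -0.072 over the 76 genes and 0.0069 over all genes tested. Changes were small, and 53 of the 76 were below 0. All 3 M8 values lay below all 3 parental values in 31 of the 76 genes (40.8%, against 20.4% of all genes tested) and above them in 6 (7.89%, against 24.8%). Other genes with a mean of at least 500 FPKM, of which there were 97, had a median of 0.080, with 12 lower and 37 higher.

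The counts depended on scaling and on single libraries. After rescaling each library to the same total (TPM), 43 ribosomal protein genes were lower (56.6%) and 3 higher, while over all genes the calls went from 1745 lower and 2250 higher to 2209 lower (20.8%) and 1658 higher. Without parental replicate 1, 40 were lower (52.6%, against 15.9% of all genes) and 3 higher (3.95%, against 19.8%). Without parental replicate 3, 14 were lower (18.4%, against 14.1% of all genes) and 8 higher (10.5%, against 19.8%). With M8 replicate 1, 2 or 3 left out, 5, 4 and 5 were lower (6.58%, 5.26% and 6.58%), which was below the share of all genes under the same settings (10.8%, 11.8% and 12.9%), and 1 was higher. The larger share of lower calls among the ribosomal protein genes than among all genes did not hold when any 1 M8 library was left out. It did not hold without the filter on low values either, where 2 were lower (2.63%, against 3.69%), nor with a replicate block, where 11 were lower (14.5%, against 15.9%). The median stayed below 0 under each of these settings, but it was -0.0376 without parental replicate 3 and -0.0992 without parental replicate 1.

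The counts were close in the 2 subunits, and their difference was not tested. In the large subunit 13 of 46 were lower (28.3%) and 2 were higher, with a median log2 fold change of -0.072. In the small subunit 7 of 30 were lower (23.3%) and 2 were higher, with a median of -0.072.

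**Figure D2:**
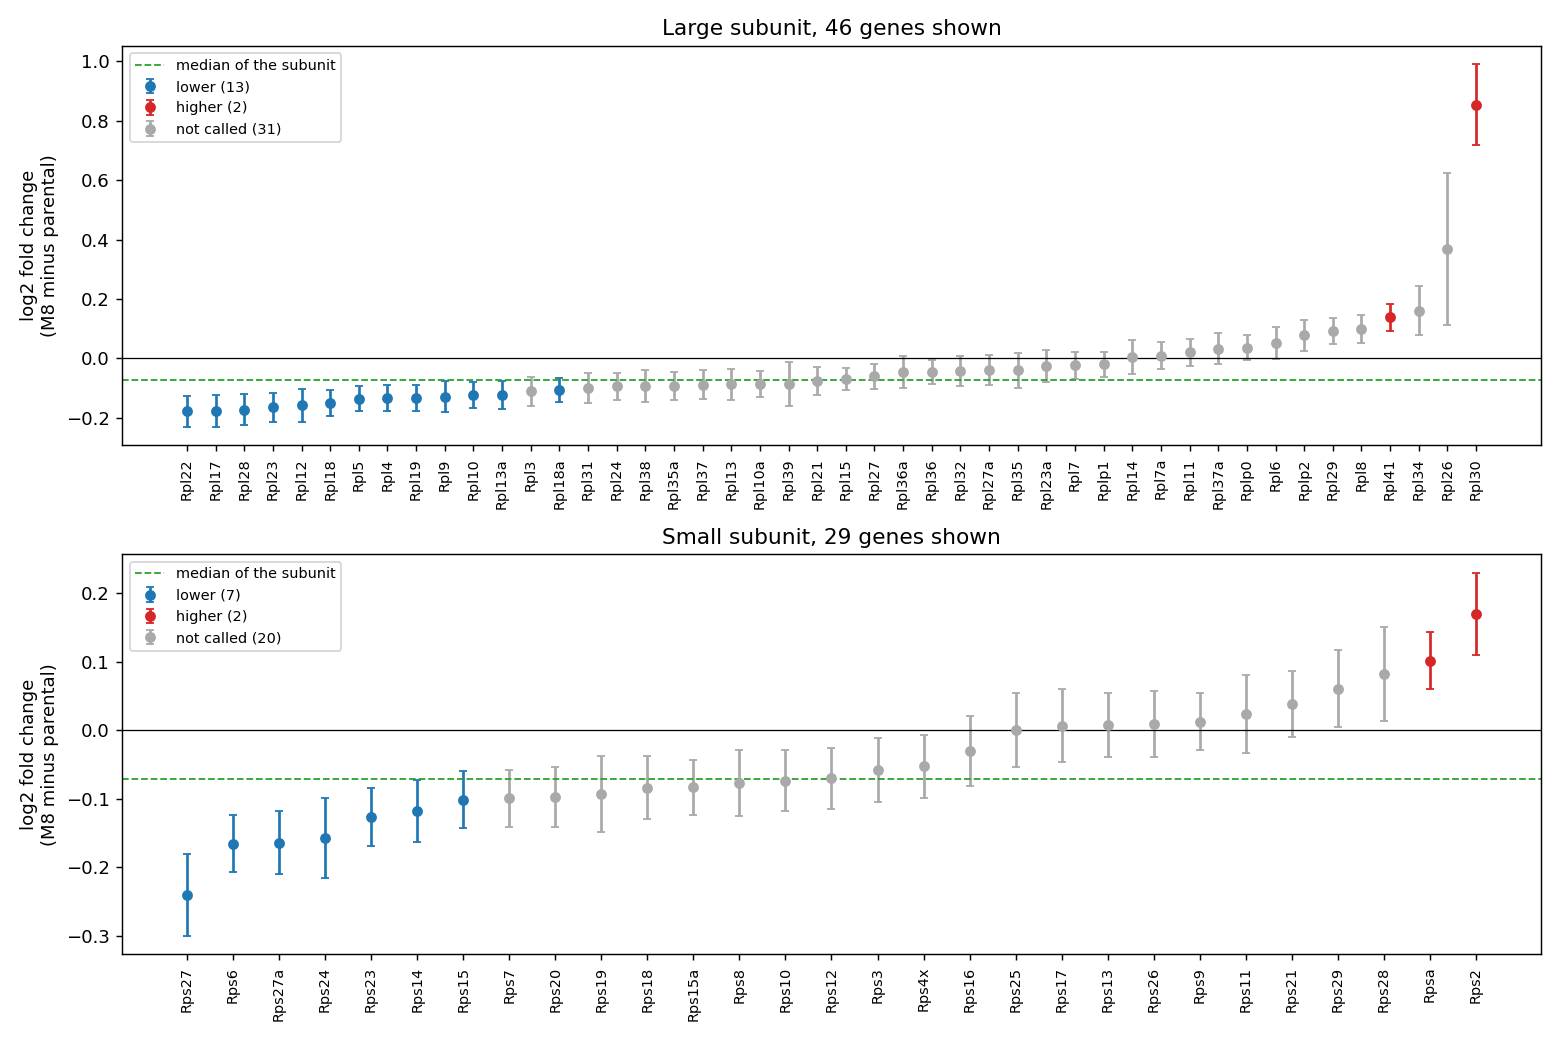
Log2 fold change (M8 minus parental, y axis) and limma standard error of 75 of the ribosomal protein genes. The large subunit is at the top (46 genes) and the small subunit at the bottom (29 genes shown), both ordered by value. Blue marks the 13 and 7 genes called lower, red the 2 and 2 called higher and grey those not called, and the dashed line is the subunit's median, -0.072 in both. The y axes of the panels differ, since Rpl30 reaches 0.85.

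Much of the spread within parental cells was shared by the whole set. Parental replicate 3 was the highest of its group in 65 of the 76 genes and parental replicate 1 was the lowest in 61. The median coefficient of variation over the 76 genes was 5.02% in the parental line and 1.51% in M8, beside 5.62% and 4.42% over all genes tested. Relative to parental replicate 1, the depth of the libraries, estimated from the steps of the lowest FPKM values, was 0.949 and 1.07 for parental replicates 2 and 3 and 0.875, 0.772 and 0.845 for M8. The part of depth in these differences was not tested.

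**Figure D3:**
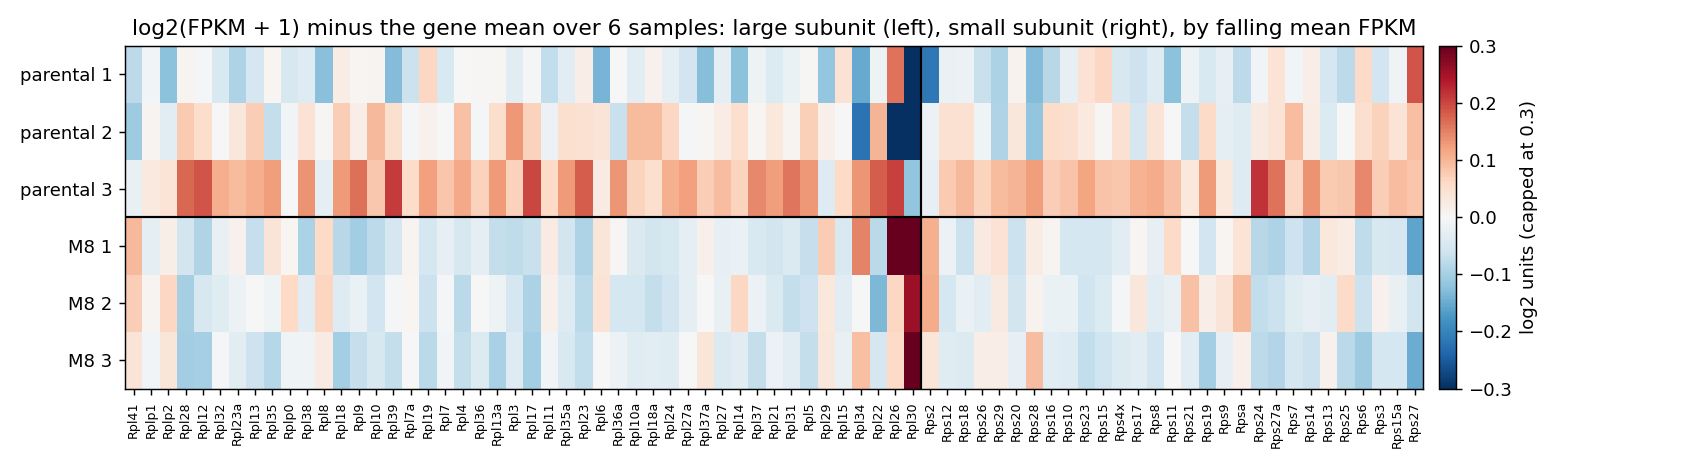
Log2(FPKM + 1) of 75 of the genes (columns) in each library (rows) minus the gene's mean over 6 libraries, with the colour scale capped at 0.3 log2 units. The vertical line separates the large subunit (left) from the small (right), and genes run from high to low mean FPKM. Parental replicate 3, highest of its group in 65 of the 76 genes, appears as a red row, and the 3 M8 rows are pale and alike.

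Levels spanned a wide range. In the large subunit the highest were Rpl41 (mean of 6 libraries 5648 FPKM), which has the shortest coding sequence of the set at 75 bases, and the acidic stalk proteins Rplp1 (5219 FPKM) and Rplp2 (4119 FPKM). In the small subunit the highest were Rps2 (4282 FPKM), Rps12 and Rps18, the last 2 proteins of the subunit's head. The lowest of the large subunit were Rpl30 (82.0 FPKM), Rpl26 and Rpl22 (125 FPKM), and of the small subunit Rps27 (8.96 FPKM), Rps15a and Rps3. The low rank of Rpl30, Rpl26 and Rps27 holds only for the symbol itself, since their near-identical copies, described with the values of these genes, were listed at mean levels of 2202, 1997 and 2488 FPKM. The median was 1644 FPKM in the large subunit and 2054 FPKM in the small.

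The stalk of the large subunit recruits the elongation factors. Rplp1 was at 5192, 5248 and 5324 FPKM in the parental line and 5114, 5245 and 5192 FPKM in M8. Rplp2 was at 3779, 4021 and 4231 FPKM against 4163, 4299 and 4220 FPKM, and Rplp0, which anchors them, at 2903, 2985 and 3003 FPKM against 3010, 3128 and 2975 FPKM. The groups overlapped in all 3 genes, and none was called (limma adjusted p = 0.757, 0.286 and 0.562). Rpl12, at the base of the stalk, was the only 1 of these 4 to be called, with a log2 fold change of -0.16 (SE 0.056, limma adjusted p = 0.0615).

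Rpl5 and Rpl11 form a particle with 5S ribosomal RNA that can also bind the p53 regulator MDM2. Rpl5 was at 752.3, 788.6 and 821.5 FPKM in the parental line and 715.9, 718.6 and 714.7 FPKM in M8. Every M8 value was below every parental one, and the change was called (log2 fold change -0.14, SE 0.042, limma adjusted p = 0.0407), although not without M8 replicate 1, 2 or 3 (limma adjusted p = 0.122, 0.115 and 0.11). Its partner Rpl11 was at 1480, 1540 and 1625 FPKM against 1584, 1575 and 1550 FPKM, with overlapping groups and a log2 fold change of 0.021 (SE 0.045, limma adjusted p = 0.763). Of 3 proteins that reach towards the catalytic centre, Rpl10 was lower (log2 fold change -0.12, limma adjusted p = 0.0562), whereas Rpl3 (-0.11) and Rpl8 (0.099) did not pass the test.

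Around the exit tunnel 4 of 9 genes were lower (44.4%, beside 26.3% of the whole set and 16.5% of all genes tested) and none was higher, with a median log2 fold change of -0.099. These were Rpl22, Rpl17, Rpl4 and Rpl19. Rpl17 was at 1600, 1681 and 1842 FPKM in the parental line and 1530, 1501 and 1494 FPKM in M8 (log2 fold change -0.18, SE 0.054, limma adjusted p = 0.0369). Rpl22, an RNA-binding protein of the outer face, was at 123.2, 133.8 and 141.5 FPKM against 117.7, 113.4 and 120.2 FPKM (log2 fold change -0.18, SE 0.053, limma adjusted p = 0.0334). In both genes the groups did not overlap. Rpl28, among the most abundant, went from 3783, 3973 and 4235 FPKM to 3619, 3509 and 3501 FPKM, a decrease of the mean without overlap (log2 fold change -0.17, SE 0.051, limma adjusted p = 0.0329). Without M8 replicate 2 the calls of Rpl22, Rpl17 and Rpl28 were lost (limma adjusted p = 0.119, 0.117 and 0.125), and without M8 replicate 3 those of Rpl17 and Rpl28 (0.11 and 0.114).

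Rpl41, a very short basic peptide between the subunits, was among the 4 genes called higher. It was at 5339, 5236 and 5553 FPKM in the parental line and 6032, 5931 and 5793 FPKM in M8, with no overlap (log2 fold change 0.14, SE 0.046, limma adjusted p = 0.0486). The call was lost in 8 of 20 alternatives, among them those without parental replicate 2 (limma adjusted p = 0.134) or without M8 replicate 1, 2 or 3 (0.199, 0.166 and 0.105).

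In the small subunit the 7 genes called lower were Rps27, Rps6, Rps27a, Rps24, Rps23, Rps14 and Rps15. Rps6, the substrate of the S6 kinases downstream of mTOR, was at 923.4, 916.5 and 980 FPKM in the parental line and 841.2, 847.9 and 823.8 FPKM in M8. The groups were clearly apart, and the log2 fold change was -0.17 (SE 0.041, limma adjusted p = 0.0167). Rps27a, made as a fusion with ubiquitin, was at 1479, 1477 and 1609 FPKM against 1346, 1374 and 1351 FPKM (log2 fold change -0.16, SE 0.046, limma adjusted p = 0.0255). It too showed no overlap, and the call was lost without M8 replicate 1 (limma adjusted p = 0.102). Rps19, the gene most often mutated in Diamond-Blackfan anaemia, was at 1974, 2119 and 2228 FPKM against 1958, 2067 and 1899 FPKM, and was not called (log2 fold change -0.093, SE 0.055, limma adjusted p = 0.236). Over 9 genes mutated in that anaemia, 2 were lower (Rps24 and Rpl5) and none was higher, a share of 22.2% that is near the 26.3% of the whole set and the 16.5% of all genes tested.

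Rps2 and Rpsa were the 2 small subunit genes called higher. Rps2, which lines the entry of the messenger RNA, was at 3682, 4221 and 4201 FPKM in the parental line and 4598, 4614 and 4379 FPKM in M8 (log2 fold change 0.17, SE 0.060, limma adjusted p = 0.0624). Rpsa, also known as the laminin receptor precursor, was at 1625, 1672 and 1670 FPKM against 1764, 1833 and 1732 FPKM (log2 fold change 0.10, SE 0.041, limma adjusted p = 0.0951). All M8 values were above all parental values in both genes, but the Rpsa call was lost in 13 of 20 alternatives and the Rps2 call in 6. Both were lost without M8 replicate 1, 2 or 3 (limma adjusted p = 0.195, 0.191 and 0.101 for Rps2 and 0.208, 0.317 and 0.135 for Rpsa), and Rpsa also without parental replicate 1 or 2 (0.125 and 0.141). In the head of the small subunit 2 of 14 genes were lower (14.3%, below the 16.5% of all genes tested) and none higher. In the body and platform, a list of 17 tested genes that includes Rps3a1, 5 were lower (29.4%) and 2 higher (11.8%). Rps12, Rps18, Rps15a and Rps3 were not called, with log2 fold changes of -0.070, -0.084, -0.083 and -0.058.

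The largest change of the whole set, that of Rpl30, was in a gene that shares its sequence with another listed symbol. In GENCODE M21, 73 of the 76 genes had at least 1 near-identical copy elsewhere (95% identity over 80% of the coding sequence), 560 in all, of which 545 were annotated as pseudogenes. Copies of 4 genes, Rpl30, Rpl26, Rpl34 and Rps27, were listed at a higher FPKM than the gene itself. They include the 2 highest log2 fold changes of the set (Rpl30 and Rpl26) and the lowest (Rps27), and reads from stretches identical in gene and copy cannot be told apart.

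Rpl30 was at 46.82, 56.95 and 71.6 FPKM in the parental line and 119.8, 93.04 and 103.5 FPKM in M8, with no overlap (log2 fold change 0.85, SE 0.14, limma adjusted p = 0.00245). The processed pseudogene Gm12191 was listed at 2182, 2255 and 2249 FPKM in the parental line and 2194, 2177 and 2153 FPKM in M8, 26.9 times the level of Rpl30. The sum of both was 2228, 2312 and 2320 FPKM against 2314, 2271 and 2257 FPKM, with overlapping groups and a log2 fold change of -0.0038 (SE 0.040, limma adjusted p = 0.953). Rpl30 was 2.55 ± 0.498% of that sum in the parental line and 4.62 ± 0.541% in M8 (SD, n = 3). The coding sequences, 345 bases long, differ at 1 position, G96A (the base of Rpl30, its position counted from the first base of the coding sequence, the base of the copy), and are identical over the longest stretch of 249 bases, which is longer than a read. The stretch around this position, coding bases 76 to 116 in GENCODE M21, is given below with the differing base in capitals, since it is what separates the 2 messages within the coding sequence.
Rpl30: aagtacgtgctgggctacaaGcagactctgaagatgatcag
Gm12191: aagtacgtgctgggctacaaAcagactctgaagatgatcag
Rpl30 lies on the minus strand at chr15:34440505-34443640 with 4 exons in its transcript, and Gm12191 on the minus strand at chr11:49678710-49679057 (GRCm38).

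Rpl26, which binds the p53 message and sits at the tunnel exit, was at 123.5, 57.73 and 127.1 FPKM in the parental line and 149, 115 and 114.8 FPKM in M8. These values overlapped, parental replicate 2 being low, and the log2 fold change of 0.37 had an SE of 0.25 (limma adjusted p = 0.307). Its copy Gm15772 was listed at 1977, 2166 and 2360 FPKM against 1805, 1859 and 1813 FPKM. The sum, at 2101, 2224 and 2487 FPKM against 1954, 1974 and 1928 FPKM, was lower in M8 without overlap (log2 fold change -0.21, SE 0.060, limma adjusted p = 0.0261), opposite in sign to Rpl26 alone. The coding sequences differ at 2 of 435 positions, C177T and T288C, of which the first is shown here in coding bases 157 to 197.
Rpl26: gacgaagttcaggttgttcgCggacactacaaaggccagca
Gm15772: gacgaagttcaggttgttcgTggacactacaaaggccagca
Rpl34 was at 199.4, 189.9 and 242.7 FPKM in the parental line and 245.6, 221.7 and 235.9 FPKM in M8, and Rpl34-ps1, which differs at T132C and C318G, was at 2530, 2700 and 2661 FPKM against 2428, 2464 and 2382 FPKM. Neither Rpl34 (log2 fold change 0.16, limma adjusted p = 0.175) nor the sum (log2 fold change -0.095, limma adjusted p = 0.131) was called.

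Rps27, the member with the lowest FPKM, had the lowest log2 fold change. It was at 10.3, 9.551 and 9.509 FPKM in the parental line and 7.896, 8.554 and 7.945 FPKM in M8 (log2 fold change -0.24, SE 0.059, limma adjusted p = 0.0158). Rps27rt, a copy with a single exon and the identical coding sequence of 252 bases, was listed at 2529, 2494 and 2833 FPKM against 2333, 2385 and 2357 FPKM, 278 times as high. The groups did not overlap in either, and the sum was also lower in M8 (log2 fold change -0.15, SE 0.054, limma adjusted p = 0.0659). Of all windows of 1 read length in the Rps27 transcript, 98.4% also occurred in its copies.

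**Figure D4:**
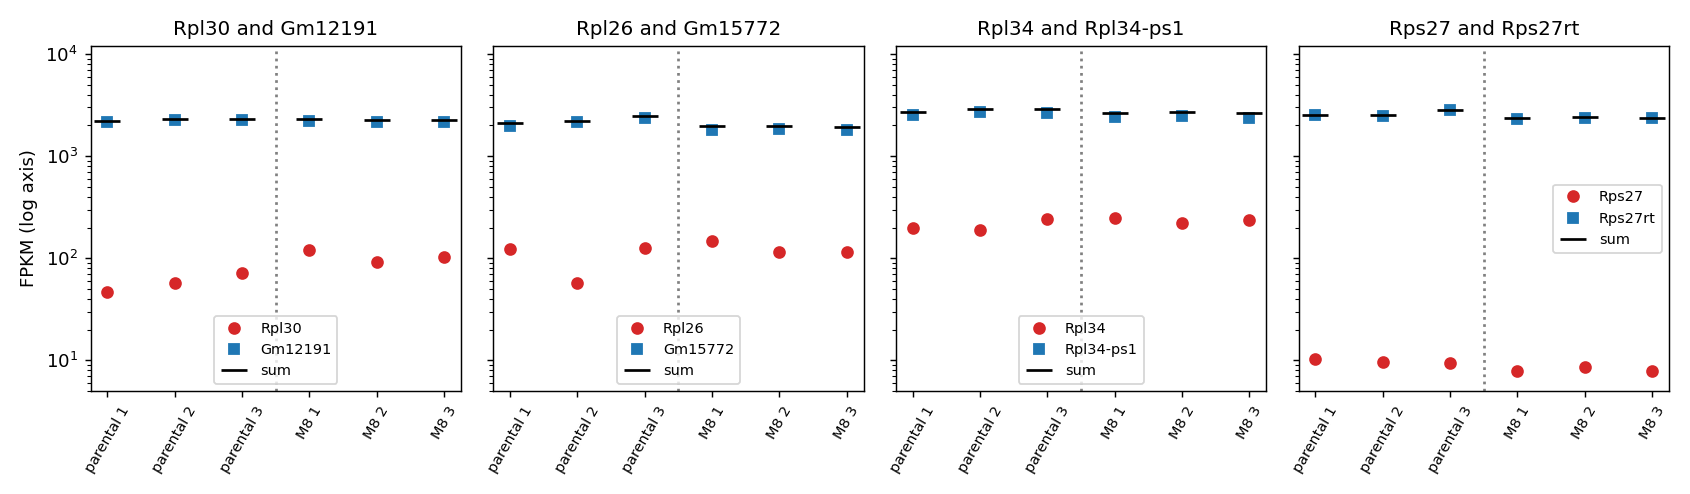
FPKM on a log axis of Rpl30, Rpl26, Rpl34 and Rps27 (red circles), of the near-identical symbol listed in the files (blue squares) and of their sum (black bars) in each of the 6 libraries, parental left and M8 right of the dotted line. The copy lies above the gene in every library, and for Rpl30 the M8 values rise above the parental values while the sum (2228 to 2320 FPKM) does not.

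With each gene summed with its listed copies, a setting chosen after seeing the data, 22 genes were lower and 3 higher. These were 28.9% and 3.95% of the set, beside 16.5% and 21.2% of all genes tested. The median log2 fold change of the set was -0.077. With the 4 abundant copies added to the sums, the ratio of large to small subunit was 1.498, 1.508 and 1.496 in the parental line and 1.479, 1.479 and 1.480 in M8.

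Ribosomal genes whose symbols do not follow the naming pattern were given beside the set. Fau, whose product is a ubiquitin-like protein fused to a small subunit protein, was at 1714, 1800 and 1765 FPKM in the parental line and 1722, 1722 and 1643 FPKM in M8, and was not called (log2 fold change -0.053, SE 0.042, limma adjusted p = 0.369). Gnb2l1, the scaffold protein RACK1 on the head of the small subunit, was lower, at 1589, 1660 and 1672 FPKM against 1433, 1475 and 1446 FPKM (log2 fold change -0.18, SE 0.040, limma adjusted p = 0.0117). Of 5 tested paralogs of ribosomal proteins, Rpl22l1 was lower and Rpl7l1 higher (log2 fold change 0.28, limma adjusted p = 0.00116). Rpl22l1, the paralog of Rpl22, was at 355.6, 351.2 and 356 FPKM in the parental line and 295, 293.8 and 298.6 FPKM in M8 (log2 fold change -0.26, SE 0.035, limma adjusted p = 0.00114). Rpl22 and its paralog were thus both lower, and Rpl22l1 had the higher FPKM in each library.

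The annotated starts of 56 of the 76 genes were found in the RefSeq promoter table (GRCm38.p6), with 66 starts in all. A run of at least 8 C or T within 20 bases before to 30 bases after the start was present at 50% of these 66 starts and at 19% of all 32851 starts. The motif CTTCCGG, on either strand from 250 bases before to 50 after the start, occurred at 36.4% against 8.86%, and TATAAA, on either strand, at 9.09% against 13.6%. The 32 genes with a pyrimidine run had a median log2 fold change of -0.085, with 9 lower, and the 24 without had -0.055, with 7 lower and 3 higher. The 23 genes with CTTCCGG had a median log2 fold change of -0.039, with 2 lower and 3 higher, and the 33 without had -0.092, with 14 lower. Over all genes tested 16.5% were lower and 21.2% higher, and the differences between genes with and without a motif were not tested. Windows of 30 bases, 10 bases before to 20 after the start, are shown for genes described above with long pyrimidine runs and for 2 of those called higher, with the longest run of C or T in capitals.
Rpl28: tctcgtgTCTCTCTTTCCgtctccggccgc
Rps6: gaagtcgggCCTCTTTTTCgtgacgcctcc
Rplp2: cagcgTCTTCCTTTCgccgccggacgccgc
Rps27: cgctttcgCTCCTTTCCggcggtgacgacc
Rpsa: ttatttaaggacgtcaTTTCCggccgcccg
Rps2: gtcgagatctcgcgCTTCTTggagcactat
They lie at chr7:4792955-4792984 on the plus strand (Rpl28), chr4:86857348-86857377 on the minus strand (Rps6), chr7:141447641-141447670 on the plus strand (Rplp2), chr3:90213629-90213658 on the minus strand (Rps27), chr9:120127756-120127785 on the plus strand (Rpsa) and chr17:24720053-24720082 on the plus strand (Rps2). The runs are 11 bases in Rpl28, 10 in Rps6 and Rplp2, 9 in Rps27, 6 in Rps2 and 5 in Rpsa. These windows were picked for display and do not represent the set. Short runs also occurred in genes called lower, such as Rpl10 (3 bases) and Rpl22 (3 and 5 bases at its starts).

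Most other messages known for a TOP motif were not called. Of 19 translation factors and related genes, 2 were lower (10.5%) and 2 higher (10.5%), below the 16.5% and 21.2% of all genes tested, and 15 were not called, with a median log2 fold change of -0.014. Tpt1, a TOP message of very high level, was at 6016, 6522 and 6405 FPKM in the parental line and 5355, 5358 and 5394 FPKM in M8 (log2 fold change -0.23, limma adjusted p = 0.00683), and the initiation factor subunit Eif3l was higher (log2 fold change 0.19, limma adjusted p = 0.00641). Of 6 noncoding snoRNA host genes, 3 were lower (50%). Gas5 was at 27.97, 28.35 and 34.67 FPKM against 20.55, 19.19 and 21.65 FPKM (log2 fold change -0.54, SE 0.081, limma adjusted p = 0.00191), and Snhg12 had a log2 fold change of -0.47 (SE 0.088, limma adjusted p = 0.00496). Within the ribosomal protein genes, the 29 that host a snoRNA had a median log2 fold change of -0.077, and the 47 others -0.068.

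Genes that build the ribosome went the other way. Of 45 ribosome biogenesis genes tested, which process ribosomal RNA and assemble the subunits in the nucleolus, 36 (80%) were higher in M8 and none was lower, beside 21.2% and 16.5% of all genes tested, with a median log2 fold change of 0.28. Rrp12, an export factor of both subunits, was at 14.99, 14.99 and 15.3 FPKM in the parental line and 24.29, 23.19 and 21.65 FPKM in M8 (log2 fold change 0.58, SE 0.052, limma adjusted p = 0.000206). Gar1, of the particle that makes pseudouridine, was at 38.96, 37.32 and 44.96 FPKM against 56.97, 56.55 and 57.22 FPKM (log2 fold change 0.49, SE 0.063, limma adjusted p = 0.00101). The groups of both genes were far apart. Nop10, a partner of Gar1, was not called (log2 fold change -0.13, limma adjusted p = 0.223). After TPM, upper-quartile or quantile scaling, median centring or scaling without the ribosomal protein genes, between 31 and 36 biogenesis genes were higher and at most 1 was lower, while the share of all genes called higher ran from 13.5% to 21.4%. At an unadjusted limma p under 0.05 there were 0 lower biogenesis genes, and likewise 0 higher genes in the exit tunnel, head and anaemia lists given above.

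Proteins of the mitochondrial ribosome, a separate machine, had 24 of 77 genes higher (31.2%) and 4 lower, beside 21.2% and 16.5% of all genes, and a median log2 fold change of 0.082. This median was 0.046 in TPM, 0.0245 after quantile normalization, 0.0216 after upper-quartile scaling and 0.0218 with the cytosolic genes left out of the scaling. The median over all genes tested, 0.0069 in the main comparison, was -0.028, -0.00093, -0.049 and -0.049 under these settings. Mrps6 was at 130.8, 156.4 and 156.1 FPKM in the parental line and 224.7, 231.8 and 209.7 FPKM in M8 (log2 fold change 0.59, SE 0.070, limma adjusted p = 0.000737), and Mrpl54 had a log2 fold change of 0.44 (SE 0.080, limma adjusted p = 0.00419). Among 13 regulators of translation and ribosome supply, 1 was lower (7.69%) and 2 were higher (15.4%), below the 16.5% and 21.2% of all genes tested. The lower 1 was Mdm2 (68.9, 68.73 and 69.78 FPKM in M8 against 79.34, 83.17 and 87.65 FPKM, log2 fold change -0.27, limma adjusted p = 0.00294). Eif4ebp1, a repressor of cap-dependent translation under mTOR, and Larp1, which binds TOP messages, were higher, with log2 fold changes of 0.21 in both (limma adjusted p = 0.0161 and 0.0058), and the other 10 were not called.

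**Figure D5:**
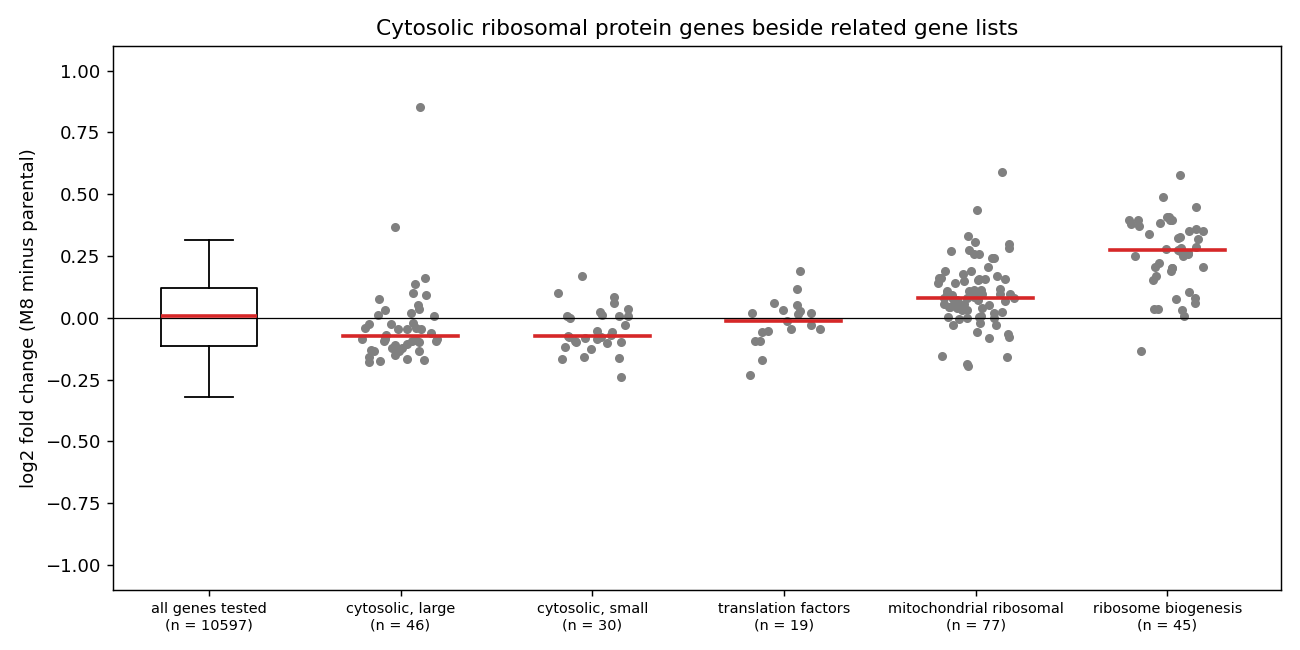
Log2 fold change (M8 minus parental, y axis) of the large and small subunit genes beside translation factors with a TOP motif, mitochondrial ribosomal proteins and ribosome biogenesis genes. Points are genes, red lines medians, and the box at left gives the quartiles of all 10597 genes tested, with whiskers at the 5th and 95th percentiles. The medians of the subunits lie at -0.072, that of mitochondrial ribosomal proteins at 0.082 and that of biogenesis genes at 0.28.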

How the data were processed

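RNA of 3 cultures each of parental CT26.mMR1 and M8 was sequenced as single reads from stranded, poly(A)-selected libraries. Per the labels, the authors aligned the reads to mm10 with TopHat2 2.1.1 and Bowtie2 2.2.8 (SAMtools 0.1.18) and used Cuffdiff 2.2.1. The study's methods give another TopHat version and name Cufflinks for the deposited FPKM per gene symbol, 1 file per library. The annotation and the treatment of reads that align to several places are not given in the sources used here, and the files hold no counts. Here log2(FPKM + 1) of the 10597 symbols with a mean of at least 1 FPKM was compared between groups with limma 3.58.1 (R 4.3.3, lmFit and eBayes with trend), with Benjamini-Hochberg adjustment over all tested symbols and a threshold of 0.1. An exact two-sided permutation test of 3 against 3 cannot go below p = 0.1 and decides nothing here. Positions, coding sequences and near-identical copies came from GENCODE M21 (GRCm38) with blastn 2.17.0, start sites from RefSeq. The fit was tested on simulated data. Genes named are the 5 members with the largest change among those called lower, the 4 called higher, the 3 highest and 3 lowest of each subunit, 9 members chosen by role, and the 2 most changed called genes of each related list, and others were named after their values were seen. The members and lists were chosen with earlier results of these data known. Same-numbered replicates did not deviate together, so the main comparison is unpaired. Alternatives covered pseudocount, filter, scaling, the trend, the threshold, a replicate block, transcript length and GC content, near-identical copies and each library left out in turn. A few items are not reported here.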

Additional observations from a re-analysis of the deposited data

How the results depend on the processing

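The median log2 fold change of the ribosomal protein genes was below 0 under every alternative reported here. It ran from -0.0992 to -0.0376 with 1 library left out, nearest to 0 without parental replicate 3, and was -0.0586 after quantile normalization. It was -0.134 after upper-quartile scaling and -0.133 with the ribosomal protein genes left out of the scaling (large subunit -0.134 in both, small subunit -0.134 and -0.133), and the summed FPKM of M8 was then 0.932 of the parental sum in place of 0.973. Under both scalings the median over all genes tested was -0.049, in place of 0.0069. The median of the set minus that of all genes was -0.0843 in both, in place of -0.0787. Counts of called genes depended on the setting, and the cause was not tested. Lower and higher genes numbered 43 and 3 in TPM (large subunit 25 lower, small subunit 18 lower and 1 higher), 43 and 1 after upper-quartile scaling (large 25 and 1, small 18 and 0, also 0 at an unadjusted limma p under 0.05), and 49 and 2 with the set left out of the scaling (large 30 and 1, small 19 and 1). Of all genes, 26.1% were then lower and 13.9% higher after upper-quartile scaling and 25.4% and 13.5% in the last, in place of 16.5% and 21.2%. Quantile normalization gave 4 higher in the large subunit, while 17.2% of all genes were higher. The loess correction for length and GC gave 37 lower (large 23, small 14 lower and 1 higher), or 48.7% against 16.5% of all genes. Without a filter on low values, where limma tested 24346 symbols, there were 2 lower and 1 higher (large 0 and 1, small 2 and 0; at an unadjusted p under 0.05, 9 lower in the large and 0 higher in the small subunit), or 2.63% and 1.32% against 3.69% and 5.27% of all symbols. Without the eBayes trend the small subunit had 4 lower and 1 higher, while 16.8% of all genes were lower and 19.5% higher. An adjusted p under 0.05 left 11 lower and 2 higher (large 8 lower, small 3 lower and 0 higher), or 14.5% and 2.63% against 11.3% and 16.4% of all genes. With a replicate block there were 11 lower and 2 higher (large 7 and 1, small 4 and 1), or 14.5% and 2.63% against 15.9% and 20.5% of all genes. The deviations of same-numbered libraries from their group's gene means correlated at only 0.1, -0.106 and -0.0326. Leaving out 1 library at a time gave 4 to 40 lower and 1 to 8 higher (large 1 to 23 and 1 to 4, small 2 to 17 and 0 to 4), while 10.8% to 15.9% of all genes were lower and 15% to 19.8% higher, and the 4 and 5 lower genes without an M8 library (5.26% and 6.58%) were below the share of all genes. In alternatives chosen after seeing the data, the large subunit had 1 higher gene when copies were summed or the 4 genes with abundant copies left out, and summing turned Rpl30 to -0.00382 and Rpl26 to -0.214. The effect of adding ribosomal genes outside the naming pattern to the set is not reported here. Without the filter the calls of Rpl22, Rpl17, Rpl28, Rpl5, Rps27a, Rps2, Rpl41, Rpsa, Tpt1, Snhg12, Eif4ebp1 and Mrpl54 were lost as well (limma adjusted p from 0.107 to 0.762). The calls of Rps27 and Rps6 held in all 20 alternatives. Rps27 shares 98.4% of its read-length windows with copies, and only the alternative that sums copies takes this into account. Precision rests on 3 libraries per group and an unknown read depth.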
